A study of Homo sapiens with 9 samples.

Results

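Transcripts of 10 leukocyte integrins and adhesion receptors were measured in drug-resistant and parental HL-60 cells: the integrin subunits ITGB2, ITGAL, ITGAM, ITGAX, ITGB1, ITGA4 and ITGA2, the hyaluronan receptor CD44, the junction molecule PECAM1 and the selectin ligand SELPLG. They were taken by gene symbol, and all 10 were among the 20637 genes of the expression table. HL-60 is an established human cell line grown from an acute myeloid leukaemia, with the character of promyelocytes. HRA cells are HL-60 cells resistant to the nucleoside analogue cytarabine (Ara-C), cultured with 100 nM of the drug. HRD cells are HL-60 cells resistant to the anthracycline daunorubicin (DNR), cultured with 30 nM of it. Parental HL-60 cells carry no resistance, and the labels name no drug for them. Polyadenylated RNA was sequenced from 3 biological replicates of each group. Resistance and the drug in the medium cannot be told apart, and the labels do not say whether HRA or HRD is a clone or a pool, so the p-values speak for HRA and HRD as sampled and not for other resistant cells.

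An integrin is a pair of an alpha and a beta chain that spans the membrane and binds its ligand firmly after a signal from inside the cell. The beta-2 chain ITGB2 (CD18) reaches the surface of leukocytes paired with ITGAL (as LFA-1), ITGAM (as Mac-1) or ITGAX, and these pairs bind ICAMs and, with ITGAM or ITGAX, complement fragments. The beta-1 chain ITGB1 pairs with ITGA4 to bind VCAM-1 and fibronectin, and with ITGA2 to bind collagen. In bone marrow such receptors hold myeloid cells to stroma, and ITGAM and ITGAX are classic markers of myeloid maturation.

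Values are read counts scaled to the depth of each library by its size factor, called normalized read counts here. The libraries held 20822709 to 66563328 reads, and 3 reads correspond to a value of 1.49 to 4.52. Of 6 promyelocyte markers, 5 averaged at least 10 in each group (ELANE did not), and the sum of all 6 was 259040.4 to 288427 in HRA, 210296 to 268439 in HRD and 288495 to 331088 in parental libraries. Replicate 2 of each group had the highest weights on the third principal component (9.07% of the variance), at 0.32 in HRA, 0.41 in HRD and 0.54 in parental cells. The other libraries reached at most 0.015 and were spread as well, with replicate 3 at −0.44 in HRA, −0.41 in HRD and −0.21 in parental cells. Calls of the genes named that change without replicate 2 of every group are given beside the result, as are the list counts. For genes other than the receptors this covers the comparisons with parental cells.

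ITGB2, the beta-2 chain, was higher in daunorubicin-resistant cells. Encoded on chromosome 21, it had normalized read counts of 2485, 2856 and 1986 in replicates 1, 2 and 3 of HRA, 3956, 7152 and 6088 in HRD and 2234, 2067 and 1671 in parental cells. Every HRD library was above every HRA and parental library, while HRA and parental cells overlapped. ITGB2 rose 2.81-fold in HRD against parental cells (log2 fold change 1.49 ± 0.20, SE, adjusted p = 0.000409 by limma). It was 2.3-fold higher in HRD than in HRA (1.20 ± 0.20, adjusted p = 0.00137). In HRA against parental cells the log2 fold change was 0.29 ± 0.20, with a 95% interval of −0.15 to 0.73 (adjusted p = 0.357). In bulk RNA, more cells with a transcript and more of it per cell cannot be told apart.

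ITGB2-AS1, an antisense gene of ITGB2, was also highest in HRD, at far lower counts. It had 6.98, 5.41 and 4.87 in HRA, 32.2, 52.7 and 47.0 in HRD and 5.05, 20.9 and 22.5 in parental cells, from 18, 144 and 41 reads in the 3 groups. The HRD libraries were again above all others. The log2 fold change was 2.72 ± 0.49 in HRD against HRA (adjusted p = 0.00210) and 1.60 ± 0.49 in HRD against parental cells (adjusted p = 0.0368). The call against parental cells was lost without HRA replicate 1 (adjusted p = 0.0529), HRD replicate 2 (0.113), HRD replicate 3 (0.0949) or parental replicate 1 (0.0905, at a log2 fold change of 0.96). It was also lost without replicate 2 of every group (0.0974), with no filter on low values (0.0685) and in a fit of HRD and parental libraries alone (0.0620). In HRA against parental cells it stood at −1.12 ± 0.49 (adjusted p = 0.145), and at −1.76 without parental replicate 1, which passed (0.0127). How the counting treated strand is not given in the sources used here, so reads of the sense and antisense gene cannot be told apart with certainty.

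**Figure D1:**
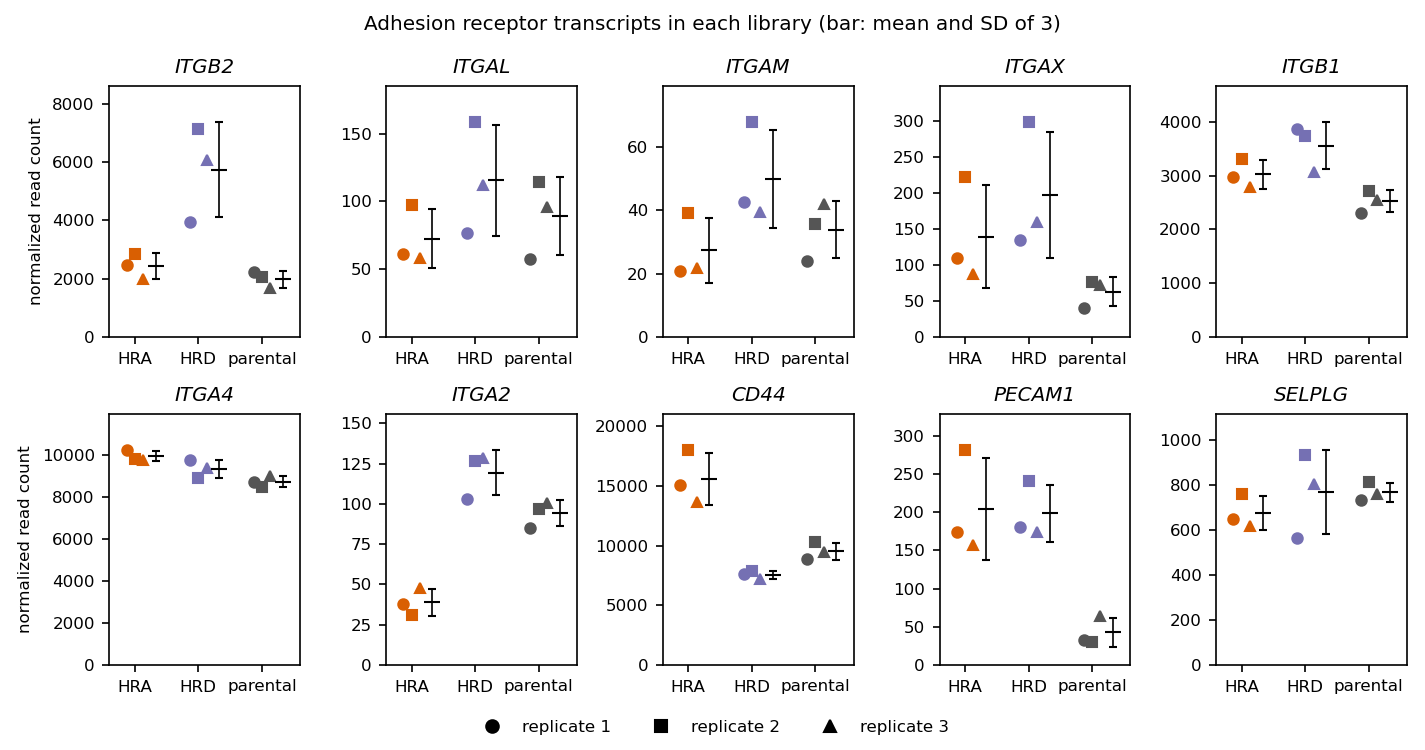
Normalized read counts (y axes, linear, from 0) of the 10 receptors in the libraries of HRA, HRD and parental cells (x axes); symbols mark replicates 1, 2 and 3, and bars the mean and SD of 3. ITGB2 stands apart in HRD (3956 to 7152), CD44 in HRA (13675 to 17984), and PECAM1 is above its parental values (30.7 to 64.4) in both resistant groups.

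Among the alpha chains that pair with ITGB2, ITGAX (CD11c) rose in HRD. This gene of chromosome 16 had 109.6, 222 and 87.7 in HRA and 135, 298 and 160.3 in HRD, against 40.4, 77.3 and 71.9 in parental cells. All resistant libraries were above all parental ones, HRA and HRD overlapped, and replicate 2 was the highest of each group. ITGAX rose 3.03-fold in HRD against parental cells (1.60 ± 0.39 on the log2 scale, adjusted p = 0.0122). In HRA its log2 fold change of 1.07 ± 0.39 did not pass (adjusted p = 0.0851). It passed by limma with the replicate number as a block over all 9 libraries (adjusted p = 0.0108), and by DESeq2 (0.0203), but not by edgeR (0.0761). HRD and HRA differed by 0.53 ± 0.39 (95% interval −0.32 to 1.38, adjusted p = 0.326). Measured markers of late neutrophils (5 of 6) summed to 429 to 629 in HRA, 460.4 to 583 in HRD and 515 to 793 in parental cells. Those of monocytes (3 of 5) summed to at most 17.5, 15.1 and 14.7 in HRA, HRD and parental cells. At these low counts 1 monocyte marker could be tested. It was called lower in HRD against parental cells (log2 fold change −1.64) and not called in HRA (1.19). Of the 3 measured monocyte markers, 1 averaged at least 10 in HRA, 1 in HRD and 0 in parental cells. The tested marker, lower in HRD, was therefore not the one averaging at least 10 there. Its call gives no direction for monocyte markers as a set. The part of late neutrophils and monocytes in the ITGAX result was not tested.

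ITGAL and ITGAM, the alpha chains of LFA-1 and Mac-1, are encoded on chromosome 16 too and were not called in any comparison of the main fit. ITGAL had 61.4, 97.4 and 58.5 in HRA and 76.4, 158 and 112 in HRD, against 57.8, 114 and 95.9 in parental cells. The 3 groups overlapped. ITGAL gave −0.28 ± 0.32 in HRA and 0.36 ± 0.32 in HRD against parental cells on the log2 scale (adjusted p = 0.589 and 0.468). HRD against HRA gave 0.64 ± 0.32 (0.155), and passed with the replicate block (0.0242 by limma).

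ITGAM (CD11b) had 20.9, 39.2 and 21.9 in HRA and 42.7, 67.8 and 39.5 in HRD, against 24.1, 35.6 and 42.0 in parental cells. These values rest on 77, 168 and 100 reads in HRA, HRD and parental cells. Each resistant group overlapped parental cells, and the lowest HRD library was just above the highest HRA library. The log2 fold change was −0.32 ± 0.33 in HRA and 0.54 ± 0.33 in HRD against parental cells (adjusted p = 0.545 and 0.279). HRD against HRA gave 0.86 ± 0.33 (adjusted p = 0.0720, and 0.0303 by limma with the replicate block), and 1.14 without HRA replicate 2, which passed (0.0369).

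Set against the beta-2 chain of the same library, ITGAL was lowest in HRD. For every 100 normalized reads of ITGB2 there were 2.47, 3.41 and 2.94 of ITGAL in HRA, 1.93, 2.21 and 1.84 in HRD and 2.59, 5.52 and 5.74 in parental cells. All HRD libraries were below all HRA and parental libraries. For ITGAX the ratios were 4.41, 7.77 and 4.42 in HRA, 3.42, 4.17 and 2.63 in HRD and 1.81, 3.74 and 4.30 in parental cells, so that HRA was above parental cells and HRD within their range. For ITGAM they were 0.843, 1.37 and 1.10 in HRA, 1.08, 0.948 and 0.649 in HRD and 1.08, 1.72 and 2.51 in parental cells, with the lowest parental library, replicate 1, just above the highest HRD library. No p-value is given for these ratios, since with 3 libraries a group the smallest p of an exact permutation test is 0.1.

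ITGB1, the beta-1 chain, rose in HRD. Encoded on chromosome 10, it had 2969, 3312 and 2788 in HRA and 3866, 3737 and 3062 in HRD, against 2311, 2719 and 2542 in parental cells. Both resistant groups lay above the parental libraries, and overlapped each other. The rise in HRD was 1.40-fold (0.49 ± 0.11 on the log2 scale, adjusted p = 0.00729). HRA against parental cells gave 0.26 ± 0.11, which did not pass (adjusted p = 0.126). HRD against HRA gave 0.23 ± 0.11 (adjusted p = 0.125), and 0.33 without HRD replicate 3, which passed (0.0364).

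ITGA4, the alpha chain of VLA-4 on chromosome 2, differed little between groups. Its counts were 10239.9, 9846 and 9791 in HRA and 9761, 8906 and 9386 in HRD, against 8734, 8491 and 8996 in parental cells. The HRA libraries were above all others by a narrow margin. The log2 fold change was 0.19 ± 0.071 in HRA and 0.097 ± 0.071 in HRD against parental cells, and neither passed (adjusted p = 0.0956 and 0.364). HRD against HRA gave −0.092 ± 0.071 (95% interval −0.25 to 0.063, adjusted p = 0.353).

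ITGA2, the collagen-binding alpha chain on chromosome 5, was lower in cytarabine-resistant cells. It had 37.7, 31.1 and 47.5 in HRA and 103, 127 and 128 in HRD, against 85.3, 96.9 and 100.4 in parental cells. The 3 groups did not overlap, with HRA lowest and HRD highest. ITGA2 fell 2.42-fold in HRA against parental cells (−1.28 ± 0.21 on the log2 scale, adjusted p = 0.00253). It was 3.05-fold higher in HRD than in HRA (1.61 ± 0.21, adjusted p = 0.000262), and HRD against parental cells gave 0.33 ± 0.21 (0.282). For every 100 normalized reads of ITGB1 there were 1.27, 0.940 and 1.70 of ITGA2 in HRA, 2.67, 3.39 and 4.19 in HRD and 3.69, 3.56 and 3.95 in parental cells, with HRA below both other groups.

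CD44, the hyaluronan receptor on chromosome 11, was higher in HRA and lower in HRD. It had 15076, 17984 and 13675 in HRA and 7598, 7865 and 7211 in HRD, against 8849, 10257 and 9438 in parental cells. The 3 groups did not overlap, with HRA highest and HRD lowest. CD44 rose 1.63-fold in HRA (0.70 ± 0.10 on the log2 scale, adjusted p = 0.00147) and fell 1.26-fold in HRD (−0.33 ± 0.10, adjusted p = 0.0398). HRD against HRA gave −1.03 ± 0.10 (adjusted p = 4.78e-05). The call in HRD against parental cells was lost without HRA replicate 1 (adjusted p = 0.0639), HRD replicate 1 (0.0659), 2 (0.0649) or 3 (0.106), or parental replicate 2 (0.132) or 3 (0.0829). It was also lost without replicate 2 of every group (0.122) and with no filter on low values (0.0616).

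ITGA2 and CD44 were the receptors whose 3 groups did not overlap in any comparison, in opposite order, and ITGB1 is the beta chain of ITGA2. Their promoters are printed for that reason: the 250 bases before the start site, 5′ to 3′ along the gene, from RefSeq on GRCh38.p14, whose promoter table held 5 of the 10 receptors. The windows are chr5:52989102-52989351 (plus strand) for ITGA2, chr11:35138921-35139170 (plus strand) for CD44 and chr10:32958231-32958480 (minus strand) for ITGB1. Capitals mark GGGCGG or its reverse complement CCGCCC, the core of the GC box that Sp1-type factors bind.
ITGA2: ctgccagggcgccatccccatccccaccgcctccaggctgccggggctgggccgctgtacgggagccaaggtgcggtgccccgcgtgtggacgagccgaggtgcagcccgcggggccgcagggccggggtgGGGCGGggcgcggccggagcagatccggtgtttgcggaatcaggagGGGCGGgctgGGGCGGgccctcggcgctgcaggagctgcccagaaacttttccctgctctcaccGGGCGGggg
CD44: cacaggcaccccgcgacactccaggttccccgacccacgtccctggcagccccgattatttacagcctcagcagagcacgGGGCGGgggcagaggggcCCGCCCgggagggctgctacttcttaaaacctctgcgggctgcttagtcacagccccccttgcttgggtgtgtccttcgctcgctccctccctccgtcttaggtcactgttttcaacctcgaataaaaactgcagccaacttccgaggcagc
ITGB1: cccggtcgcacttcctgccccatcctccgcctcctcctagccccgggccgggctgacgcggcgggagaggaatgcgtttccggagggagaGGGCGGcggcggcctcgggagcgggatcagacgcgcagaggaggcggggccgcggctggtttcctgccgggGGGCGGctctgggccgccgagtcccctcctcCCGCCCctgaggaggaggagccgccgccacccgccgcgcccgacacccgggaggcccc
The GC box core occurred 4 times before ITGA2, 2 times before CD44 and 3 times before ITGB1, and at least once in 42.6% of 35116 RefSeq windows of this length. On both strands, the RUNX core TGTGGT (11% of windows) and the AP-1 motif TGANTCA (6.57%) were in none of the 3, and the ETS motif AGGAAG (28.7%) was before ITGB1 once. G and C made up 76.4% of the window of ITGA2, 62.4% for CD44 and 78.4% for ITGB1. A match describes the letters of a window and is not a measured binding site.

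PECAM1 (CD31), which binds itself at cell contacts and lies on chromosome 17, was higher in both resistant groups. It had 175, 281 and 157 in HRA and 181, 241 and 174 in HRD, against 33.1, 30.7 and 64.4 in parental cells. Every resistant library was above the highest parental one, replicate 3, and HRA and HRD overlapped. PECAM1 rose 4.80-fold in HRA (2.26 ± 0.30 on the log2 scale, adjusted p = 0.000865) and 4.78-fold in HRD (2.26 ± 0.30, adjusted p = 0.000377), in comparisons that share the parental libraries. HRD against HRA gave −0.0086 ± 0.30, with a 95% interval of −0.67 to 0.65 (adjusted p = 0.986). Endothelium and platelets also carry PECAM1. The part of such cells in this result was not tested, and the 3 measured endothelial markers of 5 summed to 25.7 to 54.8 in HRA and 28.6 to 68.4 in HRD, against 32.5 to 76.4 in parental cells, nearly all of it ERG, with VWF at most 1.51 and KDR at most 0.496 in any library. The 2 measured megakaryocyte markers of 5 summed to 4.87 to 20.3 in HRA and 3.21 to 6.03 in HRD, against 2.81 to 8.59 in parental cells, mostly ITGA2B, with PPBP at most 1.40.

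SELPLG (PSGL-1), which carries the sugars that selectins catch and lies on chromosome 12, was not called in any comparison. It had 649, 762 and 620.1 in HRA and 566, 935 and 806 in HRD, against 734, 816 and 759.9 in parental cells. The HRD libraries spanned the whole parental range. The log2 fold change was −0.19 ± 0.16 in HRA and −0.031 ± 0.16 in HRD against parental cells (adjusted p = 0.455 and 0.916). HRD against HRA gave 0.16 ± 0.16 (adjusted p = 0.490), and 0.36 without HRD replicate 1, which passed (0.0487).

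Counted together, 2 of the 10 receptors rose in HRA against parental cells (PECAM1 and CD44), 1 fell (ITGA2) and 7 were not called, where 15.2% of all 12569 tested genes were called, 9.13% higher and 6.10% lower. In HRD against parental cells 4 rose (PECAM1, ITGAX, ITGB2 and ITGB1), 1 fell (CD44) and 5 were not called, where 22.8% of tested genes were called, 10.7% higher and 12.0% lower. In HRD against HRA 2 were higher (ITGA2 and ITGB2), 1 was lower (CD44) and 7 were not called, where 30.1% of tested genes were called, 13.9% higher and 16.2% lower. The median log2 fold change of the 10 was 0.22 in HRA and 0.43 in HRD against parental cells, beside −0.0060 and 0.0084 over all tested genes. For HRD against HRA it was 0.38, beside 0.0034. Groups did not overlap for 6 of the 10 in HRA against parental cells (38.0% of tested genes), 6 in HRD against parental cells (35.3%) and 5 in HRD against HRA (47.0%). Without replicate 2 of every group the receptors called numbered 3, 4 and 3, CD44 in HRD against parental cells being the call lost. With the replicate block, fitted over all 9 libraries, 4 receptors were called in HRA, ITGAX being added (adjusted p = 0.0108 by limma).

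**Figure D2:**
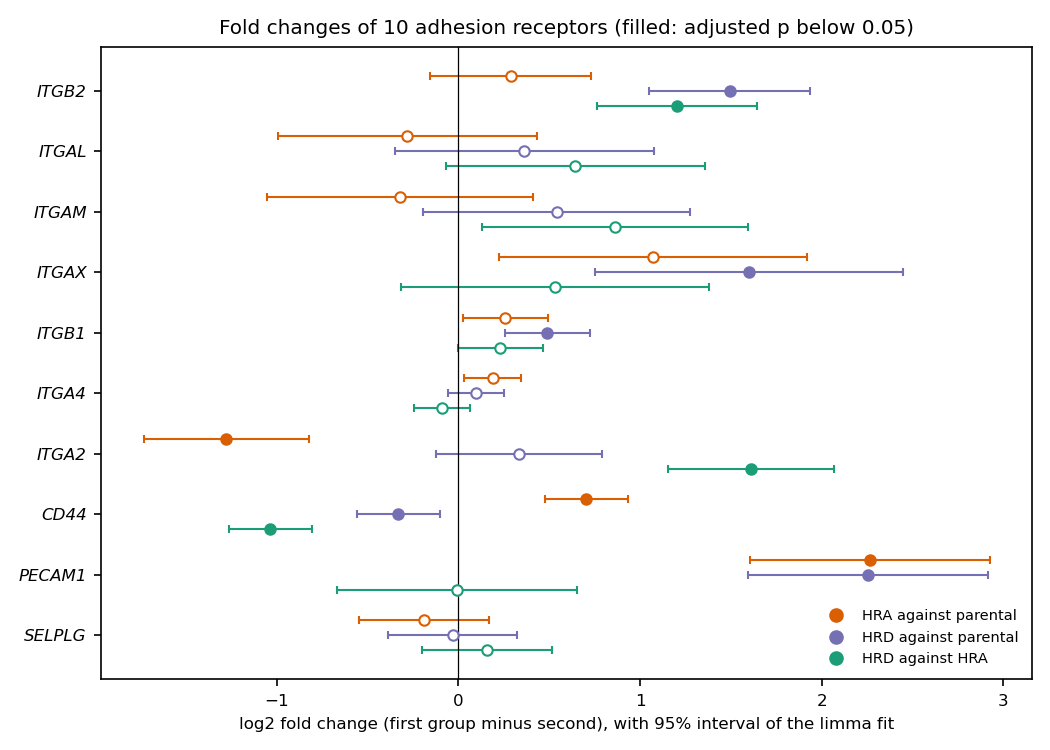
Log2 fold changes (x axis) of the 10 receptors (rows) in HRA against parental, HRD against parental and HRD against HRA; bars are 95% intervals of the limma fit, and filled points have an adjusted p below 0.05. PECAM1 is at 2.26 in HRA and 2.26 in HRD against parental cells, ITGA2 at −1.28 in HRA, and CD44 at −1.03 in HRD against HRA.

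Levels of different genes were compared as normalized reads per kilobase of merged exons (GENCODE 29 basic, which may differ from the annotation used for counting). In parental cells the mean level per kilobase was highest for ITGA4 (1898), then CD44 (1559), ITGB1 (642), ITGB2 (569) and SELPLG (309). Far below came ITGAL (17.1), ITGA2 (12.0), ITGAX (10.9), ITGAM (7.14) and PECAM1 (6.26), each overlapping its neighbours in that order. ITGB1 (588 to 692 per kilobase) and ITGB2 (477 to 638) overlapped as well. In HRA, CD44 (2241 to 2947 per kilobase) was above ITGA4 (2126 to 2223), and ITGA2 (3.95 to 6.04) had the lowest mean, overlapping ITGAM (4.41 to 8.27). In HRD, ITGB2 (1130.4 to 2043 per kilobase) was above ITGB1 (779 to 984) and overlapped ITGA4 (1933 to 2119) and CD44 (1182 to 1289). Per kilobase ITGB2 averaged 698 in HRA, 1638 in HRD and 569 in parental cells, while the highest mean of its alpha chains in any group was 34.2, of ITGAX in HRD.

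Each receptor was set beside the 10 tested genes on either side of it in the RefSeq gene order. PECAM1 and ITGAX were above all 20 neighbours in both comparisons with parental cells. The neighbours of PECAM1 had a median log2 fold change of −0.17 in HRA and −0.34 in HRD, and those of ITGAX −0.028 in HRA and 0.063 in HRD. ITGA2 was below all 20 neighbours in HRA (median 0.14). ITGB2 was above 18 of 20 in HRD, where 8 neighbours were called higher, as were 10.7% of all tested genes. ITGB2-AS1 (1.60) was among the neighbours above ITGB2 and among those called, and its reads may be shared with ITGB2. The median of the 20 neighbours was 0.33, beside 0.33 over 114 other tested genes of chromosome 21. CD44 was above 18 of 20 in HRA (median 0.20, beside 0.16 over 659 other tested genes of chromosome 11). In HRD against HRA, 8 of the 20 neighbours of CD44 were called lower too, beside 16.2% of all tested genes. ITGB1 was above 15 of 20 in HRD (median 0.18), where 5 neighbours were called higher, beside 10.7% of all tested genes.

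**Figure D3:**
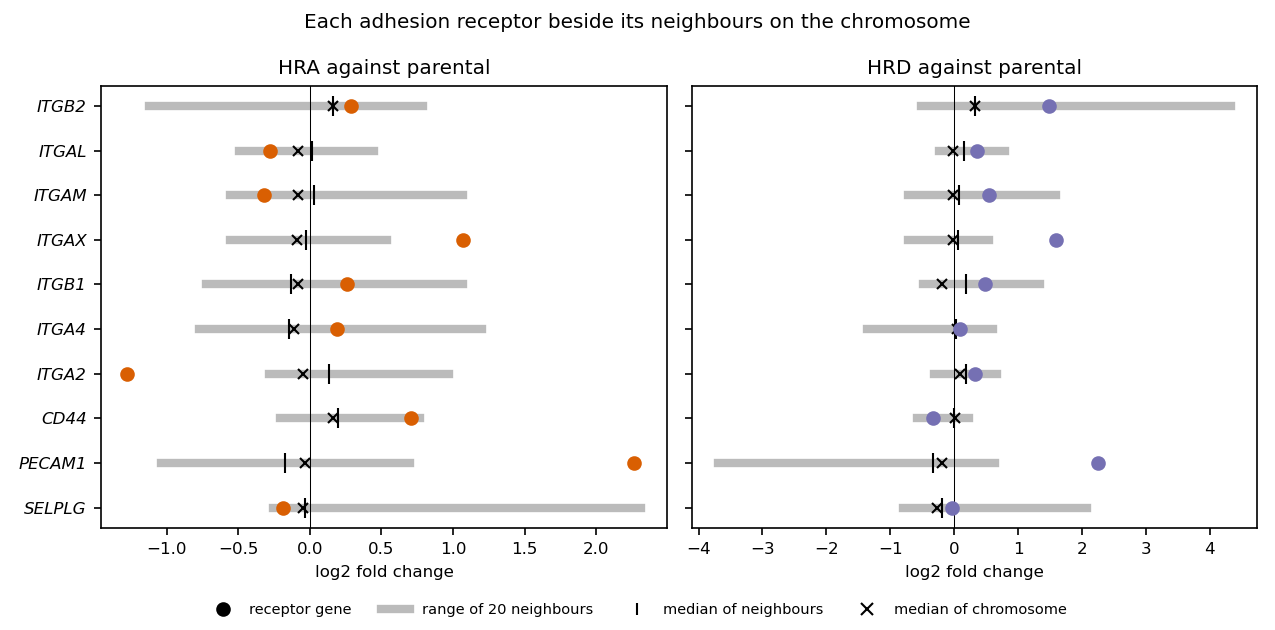
Log2 fold change (x axes) of each receptor (coloured point, rows) beside the range (grey bar) and median (tick) of its 20 neighbouring tested genes and the median of its chromosome (cross), for HRA and HRD against parental cells. PECAM1 and ITGAX lie to the right of their bars in both panels, and ITGA2 (−1.28) to the left of its bar in HRA.

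Of the 10 receptors, libraries of 1 group deviated most from each other in ITGAX. In 4 receptors, ITGAL, ITGAX, CD44 and SELPLG, replicate 2 was the highest library in all 3 groups, as in 11.2% of all tested genes. In log2(value + 1), replicate 2 deviated from the group mean of ITGAX by 0.78 in HRA, 0.67 in HRD and 0.34 in parental cells. For ITGA4 the deviations ran from −0.069 to 0.063. Parental replicate 3 was 0.66 above its group mean for PECAM1.

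**Figure D4:**
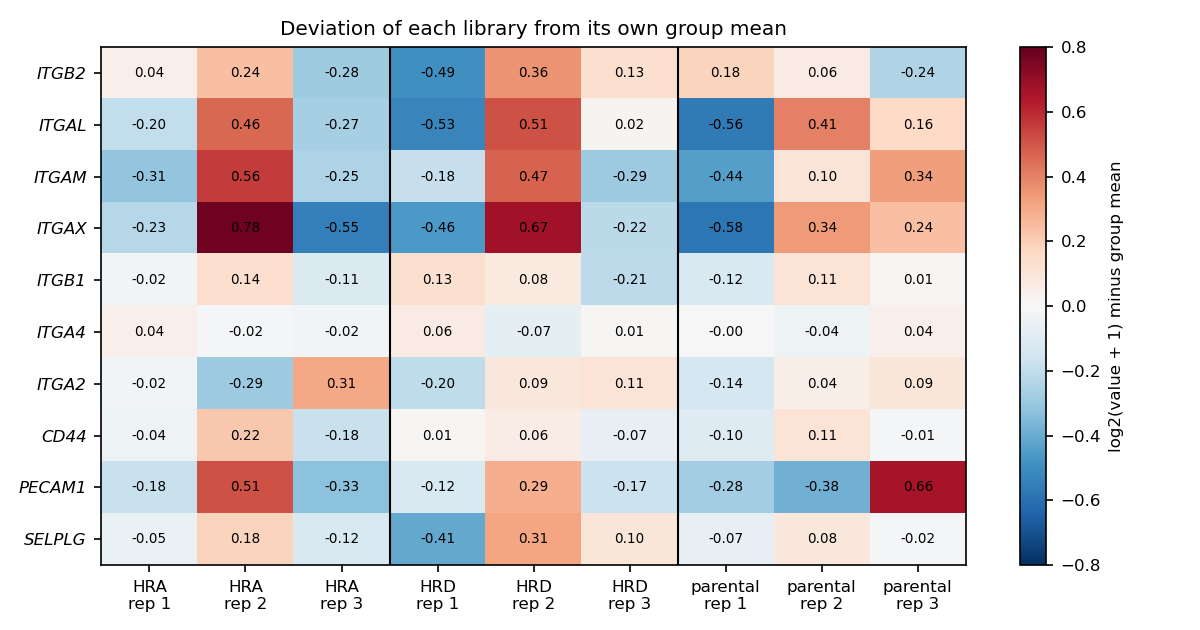
Deviation of each library (columns) from its group mean in log2(value + 1) for the 10 receptors (rows); red is above and blue below the mean. Replicate 2 is above the mean of ITGAX in HRA (0.78), HRD (0.67) and parental cells (0.34), while ITGA4 stays near 0.

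Over the 9 libraries the log2 levels of CD44 and ITGA2 had a Pearson correlation of −0.97, those of ITGAL and ITGAM 0.89, those of ITGAX and ITGB1 0.87 and those of ITGAX and PECAM1 0.85. The 9 points share their libraries and 3 groups, and the values only describe them.

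Genes around the receptors were examined in 7 lists. The counts of every list are to be read beside all tested genes, of which 9.13% were called higher and 6.10% lower in HRA. In HRD these shares were 10.7% and 12.0%. The median log2 fold change over all tested genes was −0.0060 in HRA and 0.0084 in HRD. Of 19 other integrin subunits 9 could be tested, 1 rose and 0 fell by limma in HRA, and 0 rose and 1 fell in HRD. The median log2 fold change was 0.00037 in HRA and 0.068 in HRD. The count of lower genes in HRA was 0 at an unadjusted p below 0.05 by limma, and 0 by edgeR and 0 by DESeq2 at an adjusted p below 0.05. The count of higher genes in HRD was 3 at an unadjusted p below 0.05 by limma, and 0 by edgeR and 1 by DESeq2 at an adjusted p below 0.05. The counts without replicate 2 of every group were 0 higher and 0 lower in HRA, and 1 higher and 0 lower in HRD. The rise in HRA was of ITGA5, the alpha chain of the classic fibronectin receptor, at 7960.1 ± 1219 in HRA and 5408 ± 309 in HRD, against 5571 ± 565 in parental cells (SD, n = 3 each). Its log2 fold change was 0.51 ± 0.11 in HRA (SE, adjusted p = 0.0129 by limma) and −0.039 ± 0.11 in HRD (0.845). The call was lost without HRA replicate 2 (adjusted p = 0.0517) and without replicate 2 of every group (0.0521). The subunits behind the counts in HRD are named after their values were seen. ITGA7, a laminin-binding alpha chain, averaged 23.4 ± 4.92 in HRD, against 48.2 ± 11.5 in parental cells, and fell in HRD (−1.01 ± 0.26, adjusted p = 0.0168), a call lost without HRD replicate 2 (0.0622), parental replicate 3 (0.0596) or replicate 2 of every group (0.0842). ITGB7, the beta chain that also pairs with ITGA4, averaged 40.2 ± 30.8 in HRA and 41.9 ± 16.0 in HRD, against 18.9 ± 12.4 in parental cells. Its log2 fold change in HRD was 1.22 ± 0.53 (adjusted p = 0.124), and it passed without parental replicate 2 (0.0444) and without replicate 2 of every group (0.0392).

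Of 23 tested regulators of integrin activation, 8 rose and 1 fell in HRA, and 10 rose and 0 fell by limma in HRD. Their median log2 fold change was 0.37 in HRA and 0.40 in HRD. The count of lower genes in HRD was 3 at an unadjusted p below 0.05 by limma, and 0 by edgeR and 2 by DESeq2 at an adjusted p below 0.05. TLN2, a talin, which binds integrin beta tails, averaged 239 ± 36.6 in HRA and 249 ± 30.0 in HRD, against 73.4 ± 13.2 in parental cells (log2 fold changes 1.69 ± 0.18 and 1.76 ± 0.18, adjusted p = 0.000269 and 6.98e-05 by limma). CYTH4, of the cytohesin family of ARF exchange factors, averaged 1039 ± 136 in HRA and 1625 ± 309 in HRD, against 482 ± 135 in parental cells, and rose in both (adjusted p = 0.00332 and 9.74e-05). FYB, the adaptor ADAP of inside-out signalling, averaged 1166 ± 39.2 in HRA and 1101 ± 70.8 in HRD, against 585 ± 82.2 in parental cells, and rose in both (adjusted p = 0.000320 and 0.000199). FLNA, a filamin that ties beta tails to actin, averaged 21212 ± 4413 in HRD, against 9636 ± 1097 in parental cells (1.12 ± 0.15, adjusted p = 0.000409). In HRA the log2 fold change of FLNA was 0.49 ± 0.15 (adjusted p = 0.0513, and 0.0372 with the replicate block). FLNA in HRA also passed by DESeq2 (0.0141), with TMM factors (0.0498) and in a fit of HRA and parental libraries alone (0.0209). It passed too without HRA replicate 3, HRD replicate 1 or 2 or parental replicate 1 (0.0219 to 0.0473). The other settings left it uncalled. With 1 library left out, 5 to 11 of the list rose in HRA, the fewest without HRA replicate 1 or 2. The counts without replicate 2 of every group were 5 higher and 0 lower in HRA, and 9 higher and 0 lower in HRD.

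Of 23 tested genes of the adhesion complex and its kinases, 5 rose and 2 fell in HRA, and 13 rose and 0 fell by limma in HRD, with median log2 fold changes of 0.11 and 0.43. The count of lower genes in HRD was 0 at an unadjusted p below 0.05 by limma, and 0 by edgeR and 0 by DESeq2 at an adjusted p below 0.05. FGR, a Src-family kinase of myeloid cells, averaged 54.4 ± 36.2 in HRA and 158 ± 97.4 in HRD, against 23.2 ± 17.3 in parental cells, and rose in HRD (2.78 ± 0.57 on the log2 scale, adjusted p = 0.00510). In HRA, FGR gave 1.24 ± 0.57 (adjusted p = 0.160, and 0.00435 with the replicate block). LYN, a further Src-family kinase, averaged 1625 ± 66.3 in HRA and 1262 ± 117 in HRD, against 901 ± 90.5 in parental cells, and rose in HRA (adjusted p = 0.000449). PTK2B, the focal adhesion kinase PYK2, averaged 1949 ± 126 in HRA and 1582 ± 104 in HRD, against 1065 ± 14.1 in parental cells, and rose in HRA (0.000129). For LYN and PTK2B every HRD library was above every parental one too. Their log2 fold changes in HRA were 0.85 for LYN and 0.87 for PTK2B, beside a median of 0.49 over 378 other tested genes of their chromosome, 8. PXN, the scaffold paxillin, fell in HRA to 99.8 ± 30.8, against 345 ± 112 in parental cells (−1.77 ± 0.25, adjusted p = 0.00113). ZYX, the scaffold zyxin, averaged 5668 ± 2231 in HRD, against 3060.4 ± 711 in parental cells (0.85 ± 0.27, adjusted p = 0.0429), and was not called by DESeq2 (0.0639), with no filter on low values (0.0541) or without HRA replicate 1, HRD replicate 2 or 3 or parental replicate 1 or 3 (0.0580 to 0.152). In HRA, ZYX averaged 4111 ± 1257 and was not called in the main fit, but passed with the replicate block (0.41, adjusted p = 0.0422 by limma). With 1 library left out, 3 to 5 of the list rose in HRA (fewest without HRA replicate 1 or 2) and 8 to 12 in HRD (fewest without HRD replicate 2 or parental replicate 3). The counts without replicate 2 of every group were 3 higher and 2 lower in HRA, and 11 higher and 0 lower in HRD.

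Of 14 tested ligands and counter-receptors, 4 rose and 0 fell by limma in HRA, and 5 rose and 1 fell in HRD, with median log2 fold changes of 0.58 and 0.57. At an unadjusted p below 0.05 by limma the number lower in HRA was 1, and at an adjusted p below 0.05 edgeR called 1 and DESeq2 1. With replicate 2 of every group left out, 3 rose and 0 fell in HRA, and 4 rose and 0 fell in HRD. CD58, the ligand of CD2, averaged 2260.5 ± 145 in HRA and 1865 ± 235 in HRD, against 1135 ± 24.0 in parental cells, and rose in both (adjusted p = 0.000151 and 0.000478). LGALS9, galectin-9, averaged 2512 ± 173 in HRA and 2219 ± 87.3 in HRD, against 1493 ± 223 in parental cells, and rose in both (adjusted p = 0.00113 and 0.00287).

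All 15 genes of selectin-ligand synthesis were tested, of which 3 rose and 0 fell by limma in HRA, and 3 rose and 2 fell in HRD, with median log2 fold changes of 0.24 and 0.043. At an unadjusted p below 0.05 by limma the number lower in HRA was 1, and at an adjusted p below 0.05 edgeR called 0 and DESeq2 0. With replicate 2 of every group left out, 0 rose and 0 fell in HRA, and 1 rose and 2 fell in HRD. The calls in HRA were of SLC35C1, the GDP-fucose transporter (adjusted p = 0.0213), and of the galactosyltransferases B4GALT1 (0.0428) and C1GALT1 (0.0427). C1GALT1 had a log2 fold change of 0.29 in HRA, beside a median of 0.25 over 574 other tested genes of its chromosome, 7. In HRD it was not called, but without HRD replicate 1 it passed as lower (−0.25, adjusted p = 0.0459 by limma). SLC35C1 was not called with 1 HRA library, whichever it was, or parental replicate 2 or 3 left out (adjusted p = 0.0546 to 0.0951). B4GALT1 was not called with 1 HRA library, HRD replicate 2 or parental replicate 1 or 3 left out (0.0504 to 0.167), nor was C1GALT1 with 1 HRA or parental library or HRD replicate 2 left out (0.0524 to 0.152). Without replicate 2 of every group the adjusted p of SLC35C1, B4GALT1 and C1GALT1 was 0.106, 0.142 and 0.225. B4GALT1 was also called higher in HRD, at 1654 ± 117, against 1311 ± 172 in parental cells. That call was lost without replicate 2 of every group (0.0868). It was also lost with HRA replicate 1 or 3, HRD replicate 1 or 2 or parental replicate 1 or 3 left out (0.0632 to 0.145). FUT7, the fucosyltransferase that completes sialyl Lewis x, fell in HRD to 86.3 ± 27.7, against 182 ± 57.9 in parental cells (−1.07 ± 0.28, adjusted p = 0.0165), a call lost without HRD replicate 1 (0.0536) or parental replicate 1 (0.0623). C1GALT1C1, the chaperone of the core 1 galactosyltransferase, averaged 711 ± 46.5 in HRA and 829.6 ± 24.0 in HRD, against 586 ± 19.1 in parental cells. It rose in HRD (0.50 ± 0.091, adjusted p = 0.00267), and in HRA it was not called by limma but passed by DESeq2 (0.0383). ST3GAL3, a sialyltransferase, averaged 451 ± 12.1 in HRA and 562 ± 33.5 in HRD, against 371 ± 53.9 in parental cells. It rose in HRD (0.61 ± 0.12, adjusted p = 0.00465, and 0.0556 without replicate 2 of every group).

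Of 12 tested partners and sheddases of CD44 and PECAM1, 1 rose and 0 fell by limma in HRA, and 6 rose and 1 fell in HRD, with median log2 fold changes of 0.17 and 0.18. At an unadjusted p below 0.05 by limma the number lower in HRA was 0, and at an adjusted p below 0.05 edgeR called 0 and DESeq2 0. SRGN, the granule proteoglycan serglycin, which can bind CD44, averaged 111643 ± 7888 in HRA and 162014 ± 21280.5 in HRD, against 69757 ± 11834 in parental cells (log2 fold changes 0.69 ± 0.15 and 1.22 ± 0.15, adjusted p = 0.0118 and 0.000224). The call of SRGN in HRA was lost without HRA replicate 1 (0.0516) or 2 (0.0516). ADAM17, a sheddase of surface receptors, averaged 1428 ± 81.6 in HRA and 1663 ± 109 in HRD, against 1245 ± 71.0 in parental cells, and rose in HRD (adjusted p = 0.00562). HMMR, a hyaluronan-binding protein, averaged 3917 ± 229.9 in HRD, against 2859.7 ± 579 in parental cells (adjusted p = 0.0204), and was not called without HRD replicate 1 (0.0522) or 2 (0.0618), parental replicate 1 (0.0689) or 2 (0.0613), or replicate 2 of every group (0.139). The counts without replicate 2 of every group were 1 higher and 0 lower in HRA, and 3 higher and 0 lower in HRD.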

How the data were processed

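Gene expression was analysed in 9 libraries from the processed table. In the deposited table the signal of a gene is its read count over the size factor of its library. Tools in the submitters' processing notes are DESeq2, HTSeq 0.11.1, Cufflinks 2.2.1, Picard, Bowtie2 2.3.5.1 and TopHat2 2.1.1, and the build is hg19. Their roles, the annotation and the strand setting are not given in the sources used here. All values (100.0%) gave whole reads when multiplied by a single factor of the library (tolerance 0.001).

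Genes reaching a value of 10 in 3 or more libraries (12569, all 10 receptors among them) were fitted with limma 3.58.1 (R 4.3.3, variance trend) on log2(value + 1) over all 9 libraries, a scale that understates changes of low counts. A call is an adjusted p below 0.05, by the method of Benjamini and Hochberg across all genes fitted. On the recovered reads edgeR 4.0.16 called 1924, 2852 and 3800 genes in HRA against parental, HRD against parental and HRD against HRA, beside 1915, 2863 and 3787 by limma, and DESeq2 1.42.0 called 2366, 3144 and 4105. Other settings were pseudocounts of 0.5 and 5, other filters, TMM factors, a replicate block, 2 groups only and leaving out each library.

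Deviations of HRA and parental libraries of the same number correlated at 0.22, 0.38 and 0.14, each over 0.1, so the number was taken to pair these groups. The main limma fit has no replicate block and does not use this pairing. The block was fitted over all 9 libraries, so it also took in the HRD libraries by their number. Calls in HRA that differ with the block are given beside the result. The receptors and lists were chosen with earlier results of these data known. From each list, up to 3 genes per comparison with parental cells are named: called, not overlapping, averaging at least 100 in the higher group, largest change first; 2 genes so chosen are counted in their lists and not reported here by name. Of 202 list and marker genes 177 were found by symbol, and the rest were not analysed here. Marker sums of further cell types reached at most 31.1 in HRA, 3.01 in HRD and 18.4 in parental cells for T cells, 47.3, 6.45 and 19.6 for B cells, 0, 0.992 and 6.00 for erythroid cells, 1.22, 1.98 and 3.00 for fibroblasts and 1.22, 10.5 and 4.91 for epithelium. Exon lengths came from GENCODE 29, and chromosomes, gene order and promoters from RefSeq on GRCh38.p14.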

Additional observations from a re-analysis of the deposited data

How the results depend on the processing

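Of 567 fold changes of the 10 receptors under other settings, 546 kept their direction and side of the threshold, 7 came to pass, 8 ceased to pass and 6 changed sign. Of 54 of ITGB2-AS1, 7 ceased to pass and 1 came to pass. With libraries left out, the sign changes were within ranges of log2 fold changes of −0.17 to 0.25 for PECAM1 in HRD against HRA (above 0 without HRA replicate 2, HRD replicate 1 or 3, and, at 0.098, without replicate 2 of every group) and −0.19 to 0.17 for SELPLG in HRD against parental cells (above 0 without HRD replicate 1 or parental replicate 2). Against parental cells the ranges were −0.38 to 0.049 for FUT7 in HRA, −0.12 to 0.027 for ITGA5 in HRD and −0.41 to 0.061 for PXN in HRD. None of these values that changed sign passed in either setting. With 1 library left out, the genes called numbered 904 to 2317 in HRA against parental cells (1915 with all; 904, 946 and 1242 without HRA replicate 1, 2 or 3), 2034 to 2899 in HRD against parental cells (2863 with all) and 2391 to 3933 in HRD against HRA (3787 with all, the lowest without HRA replicate 1). Receptors called numbered 3 in each such fit of HRA, 4 to 5 in HRD and 3 to 4 in HRD against HRA. Without replicate 2 of every group, a setting chosen after seeing the data, 712, 1470 and 1825 genes were called in HRA against parental, HRD against parental and HRD against HRA. With the replicate block 2774, 3639 and 4673 genes and 4, 5 and 5 receptors were called, adding ITGAX in HRA and, in HRD against HRA, ITGAL (adjusted p = 0.0242 by limma) and ITGAM (0.0303). Same-numbered libraries correlated at −0.078, 0.26 and 0.29 between HRD and parental cells and at −0.029, 0.41 and 0.23 between HRD and HRA, where 4 of 6 and 4 of 6 libraries correlated best with their own number, so the number is not taken to pair these groups. The cause of these changes was not tested. The filter of at least 50 gave no value for ITGAM and ITGB2-AS1, whose few reads limit them most.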

Other observations

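A further list held surface mucins, tetraspanins and other adhesion proteins. Of 11 tested, 5 rose and 0 fell by limma in HRA, and 6 rose and 1 fell in HRD, with median log2 fold changes of 0.47 and 0.61. Of all tested genes 9.13% rose and 6.10% fell in HRA, and 10.7% rose and 12.0% fell in HRD. At an unadjusted p below 0.05 by limma the number lower in HRA was 0, and at an adjusted p below 0.05 edgeR called 0 and DESeq2 0. With replicate 2 of every group left out, 4 rose and 0 fell in HRA, and 5 rose and 1 fell in HRD. CD82, a tetraspanin that associates with integrins, averaged 3416 ± 329 in HRA and 4037 ± 1029.6 in HRD, against 849.7 ± 132 in parental cells (SD, n = 3 each; log2 fold changes 2.01 ± 0.18 and 2.23 ± 0.18, SE, adjusted p = 7.59e-05 and 9.18e-06 by limma). CD151, a tetraspanin partner of laminin-binding integrins, averaged 3099.7 ± 135 in HRA and 2777 ± 491 in HRD, against 1824 ± 332 in parental cells. It rose in HRA (adjusted p = 0.00474) and was also called higher in HRD, a call lost without replicate 2 of every group (0.0718). CD63, a tetraspanin of granule membranes, averaged 4647 ± 351 in HRA and 7796 ± 1684 in HRD, against 3829.8 ± 429 in parental cells, and rose in HRD (1.01 ± 0.14, adjusted p = 0.000432). PODXL, a sialomucin, averaged 545 ± 40.4 in HRA and 535 ± 62.4 in HRD, against 323 ± 64.9 in parental cells, and rose in both (adjusted p = 0.00736 and 0.00593). CD37, a leukocyte tetraspanin, fell in HRD to 309.8 ± 89.4, against 572 ± 86.6 in parental cells (adjusted p = 0.0298), a call lost without HRD replicate 1 (0.0990) or 3 (0.0680) and without parental replicate 2 (0.0799) or 3 (0.0895).

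The tested genes most like each called receptor, by Pearson correlation of log2 levels over 9 libraries, were FURIN (0.98), GMPPA (0.98) and LOC642852 (0.98) for ITGB2, and DLGAP1-AS1 (0.98), SMIM14 (0.98) and SMOX (0.98) for ITGAX. For ITGB1 they were CAP1 (0.99), RNF19B (0.98) and AP1S2 (0.97), and for ITGA2 ZNF462 (0.98), TEAD3 (0.98) and RASGRF1 (0.98). For CD44 they were ZNF564 (0.99), PCLAF (0.99) and ZDHHC2 (0.99), and for PECAM1 DMXL2 (0.98), SIGLEC7 (0.97) and RPS6KA5 (0.97). SIGLEC7, a sialic acid receptor of leukocytes, averaged 82.1 in HRA and 52.3 in HRD, against 7.73 in parental cells. The points share libraries and groups, and the values describe likeness in these libraries.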
